A study of Homo sapiens with 8 samples.

Results

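RNA bound to Argonaute 2 (Ago2) in KM-H2 cells that expressed a sponge for miR-155 (miR-155-sp) was compared with Ago2-bound RNA of KM-H2 cells with the empty vector (EV). KM-H2 is an established Hodgkin lymphoma line, of B-cell origin. All cells of the series carried the retroviral pMSCV-PIG backbone and had been sorted for GFP, and the sponge cells additionally expressed a transcript with repeated miR-155 binding sites. The comparison used the Ago2-IP RNA of EV cells and the Ago2-IP RNA of miR-155-sp cells, each labelled with Cy3 and with Cy5, so 4 of the 8 samples of the series. The total RNA of the same cell populations, also in both dyes, gave the values set beside them. The question was which transcripts lose or gain Ago2 when a sponge for miR-155 is expressed. For its Hodgkin lines, the study proposed that part of the abundant miR-155 escaped the sponge. How much was captured was not tested here.

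Ago2 carries a miRNA, and bases 2 to 8 of that miRNA, the seed, pair with sites that lie mostly in the 3′ ends of mRNAs. Precipitated Ago2 therefore brings down the transcripts that its miRNAs recognize. A sponge offers miR-155 many extra sites, and endogenous targets of miR-155 then have to compete for it. MiR-155 is processed from the MIR155HG transcript and is known to be abundant in Hodgkin lymphoma cells. Its mature sequence is shown first because it is the miRNA that the sponge has sites for, and 3 other miRNAs whose targets served for comparison follow it. Sequences and positions are those of RefSeq on GRCh38.p14, and capitals mark the seed.
hsa-miR-155-5p: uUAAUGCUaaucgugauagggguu
hsa-let-7a-5p: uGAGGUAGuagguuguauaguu
hsa-miR-17-5p: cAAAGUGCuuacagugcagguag
hsa-miR-21-5p: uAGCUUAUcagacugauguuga
The 4 seeds all differ. MiR-155-5p lies at chr21:25573983-25574006 on the plus strand and its seed pairs with the site AGCAUUA. MiR-17-5p lies at chr13:91350618-91350640 and miR-21-5p at chr17:59841273-59841294, both on the plus strand, with the sites GCACUUU and AUAAGCU. Let-7a-5p is encoded by 3 genes, on chromosomes 9, 11 and 22, and pairs with CUACCUC.

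The value table held 16065 probes with log2 values that the authors had quantile-normalized over all 8 channels. Of these, 8033 were bright, meaning that their mean log2 value over the 4 Ago2-IP channels was at or above the median of the table, 9.70. All 8033 bright probes were well above background in all 4 Ago2-IP channels. A change is the log2 value of the miR-155-sp Ago2-IP minus that of the EV Ago2-IP within 1 dye. Each group was 1 RNA and its Cy3 and Cy5 values were technical labellings, so no test was possible and no p-value is given. EV and sponge RNA were never on the same array, so array and cell population cannot be told apart. In bulk RNA, fewer cells of a type and less RNA per cell cannot be told apart either. Before quantile normalization, the signals of 10 spike-in RNAs relative to the genes were higher in the miR-155-sp Ago2-IP than in the EV Ago2-IP, by a median of 1.71 (Cy3) and 1.59 (Cy5) on the log2 scale, against 0.063 and 0.074 between the total RNAs. All changes below are therefore relative to the other transcripts of the same precipitate, and the part of the spike-in difference in them was not tested.

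The labels name the cells as KM-H2, and cell type markers were read beside this name. Of the listed Hodgkin line genes, 8 of 9 had probes in the table. TNFRSF8, which encodes CD30, had total RNA log2 values between 11.66 and 11.90 and Ago2-IP values between 11.48 and 11.58. The T cell list was represented by CD2 alone, 1 of 5 genes, with Ago2-IP values between 6.06 and 7.17 and well above background in 2 of 4 Ago2-IP channels. In total RNA the CD2 values were higher, between 8.62 and 8.72. The B cell list had 3 of 8 genes in the table, CD79A, POU2F2 and EBF1, none of which moved the same way in both dyes. Of 6 monocyte genes, CD14 and CSF1R were in the table. CSF1R, also a literature target of miR-155, was 0.33 (Cy3) and 0.41 (Cy5) lower on the log2 scale in the sponge precipitate and 0.39 and 0.58 lower in total RNA. The total RNA values of this monocyte gene lay between 10.55 and 11.27.

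Most differences between the precipitates were small. Over the bright probes the change had an SD of 0.21 in Cy3 and 0.26 in Cy5, and the Pearson correlation of the 2 labellings across these probes was 0.51. Probes are not independent, and both labellings share 1 RNA. The same direction in both dyes was found for 5449 bright probes, 67.8%, of which 2946 (36.7%) were lower and 2503 (31.2%) higher in the sponge precipitate. With a common median per channel in place of quantile normalization this split turned to 24.9% lower and 43.5% higher, and with normexp, loess and Aquantile it was 41.6% and 24.2%. By at least 0.32 on the log2 scale in both dyes, 167 bright probes (2.08%) were lower and 214 (2.66%) higher. At 1.5-fold, the limit used here for a call, 8 (0.0996%) were lower and 25 (0.311%) higher, and none reached 2-fold in either direction. The 8 against 25 became 3 against 49 with the common median and 1 against 15 with normexp and quantile normalization. In total RNA the balance was the other way round, with 24 bright probes (0.299%) at least 1.5-fold lower and 4 (0.0498%) higher. Brightness was set by the Ago2-IP channels, so some of these probes may be dim in total RNA. The total RNA counts were not repeated under other normalizations. The plot of the labellings against each other shows the cloud and the gene groups marked within it.

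**Figure D1:**
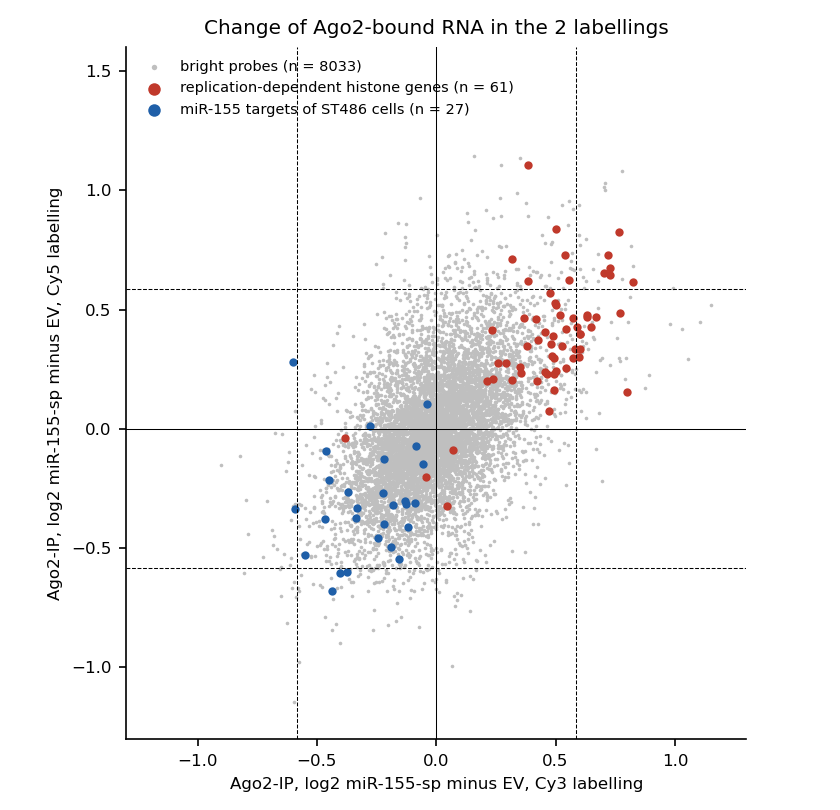
Log2 change of Ago2-bound RNA, miR-155-sp minus EV, in the Cy3 labelling (x axis) and the Cy5 labelling (y axis). Grey points are the 8033 bright probes, red points the 61 bright replication-dependent histone probes and blue points the 27 bright ST486 target probes; dashed lines mark 1.5-fold. Of the red points 57 lie above 0 in both dyes and of the blue points 24 lie below 0 in both.

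Of the 8 bright probes called lower, 5 matched a gene. MAT2B, the regulatory subunit of methionine adenosyltransferase, had log2 values of 10.37 (EV) and 9.75 (sponge) in Cy3 and of 9.81 and 8.99 in Cy5. Its changes were -0.63 and -0.81, both sponge values lay below both EV values, and total RNA had changes of 0.02 and -0.13. A brighter second MAT2B probe had changes of -0.21 and -0.11. COX7A2L, a factor for the assembly of respiratory chain supercomplexes, fell from 11.11 to 10.51 in Cy3 and from 10.85 to 9.71 in Cy5. Its other probe had the same direction, with -0.44 and -0.42. MORF4L1, a chromodomain protein of histone acetyltransferase complexes, fell from 12.75 to 12.16 and from 12.36 to 11.72. Its other probes, both bright, had changes of -0.48 and -0.66 and of -0.40 and -0.15, while the means of its 3 probes in total RNA lay between -0.01 and 0.07.

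SESN2, a stress-inducible protein that restrains the growth kinase complex mTORC1, fell from 10.19 to 9.38 in Cy3 and from 10.09 to 9.48 in Cy5. Its total RNA was also lower, by 0.42 and 0.51 on the log2 scale. HMGN4, a nucleosome-binding protein, fell from 11.72 to 11.06 and from 11.57 to 10.98, and its other probe had changes of -0.42 and -0.44. All 4 of these genes with further bright probes thus had all of them lower in the mean. The remaining 3 called probes matched no gene and had changes between -0.59 and -0.70. None of the 8 was a probe of the ST486 target list, which held only 27 of the 8033 bright probes. HMGN4 lay just inside the limit with -0.65 and -0.59, and RPL15 just outside it with -0.58 and -0.68.

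The 15 bright genes with the lowest values in both dyes also included EIF4A2, an RNA helicase of translation initiation. It was bright, with values of 15.21 (EV) and 14.69 (sponge) in Cy3 and of 15.23 and 14.70 in Cy5. A second EIF4A2 probe had changes of -0.31 and -0.35. UAP1, which makes the sugar donor UDP-N-acetylglucosamine, had changes of -0.72 and -0.54, and NECAP1, a clathrin adaptor-binding protein, of -0.56 and -0.53. ARFIP1, which binds ARF family GTPases and is on the ST486 list, had changes of -0.55 and -0.53. LONRF1 had changes of -0.52 and -0.54, but its total RNA had changes of -0.59 and -0.65. The others were ARLN (-0.57 and -0.61), CREG1 (-0.51 and -0.53) and STRADB (-0.67 and -0.50). RPL15, NBPF14 and LONRF1 had bright probes that disagreed. A LONRF1 probe had changes of 0.12 and -0.17. The second RPL15 probe had changes of 0.01 and -0.03, and a second probe of NBPF14, a member of a multigene family, of 0.38 and 0.41. In all 15 both sponge values lay below both EV values, against 19.8% of the table. Total RNA was lower in both dyes for 12 of the 15, against 33.7% of all probes. Its median change was -0.21 against -0.59 in the precipitate. The 15 were chosen for their fall in the precipitate in both dyes. The separation of the sponge values from the EV values and the larger change there were thus favored by the choice.

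Of the 25 bright probes called higher, 9 matched a gene, and 6 of these 9 were replication-dependent histone genes. NCL, nucleolin, rose from 11.06 to 12.05 in Cy3 and from 11.32 to 11.91 in Cy5. Its second probe had changes of 0.33 and 0.67, and total RNA of the first probe had changes of 0.22 and -0.31. RPL23AP32, a ribosomal protein pseudogene, rose from 10.94 to 11.65 and from 11.00 to 12.03. Such probes may share sequence with the parent gene and other copies, so the gene behind the signal is uncertain. NCL lay just inside the limit, and RPL23AP7, another pseudogene, just outside it with 0.57 and 0.92. The 16 probes that matched no gene had changes between 0.60 and 0.82 in Cy3 and between 0.59 and 1.08 in Cy5. Of these, 5 had been designed to predicted RefSeq models and 6 carried only a probe name. Total RNA was higher in both dyes for 22 of the 25 called probes, against 32.5% of all probes. For all 25 the change was larger in the precipitate than in total RNA, with medians of 0.71 and 0.46. The 25 were called by their change in the precipitate, so a larger change there was favored by the choice.

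The remaining bright genes among the 15 with the highest values were NACA4P (0.56 and 0.71), H4C4 (0.56 and 0.62), RPL24 (0.55 and 0.95), H2AJ (0.55 and 0.54) and H2AC17 (0.54 and 0.73). RPL24 and H2AJ had probes that disagreed. A brighter RPL24 probe had changes of -0.09 and -0.03, and a second probe of H2AJ, whose histone is made throughout the cell cycle, of -0.16 and -0.26. The second RPL23AP7 probe had changes of 0.04 and -0.08.

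**Figure D2:**
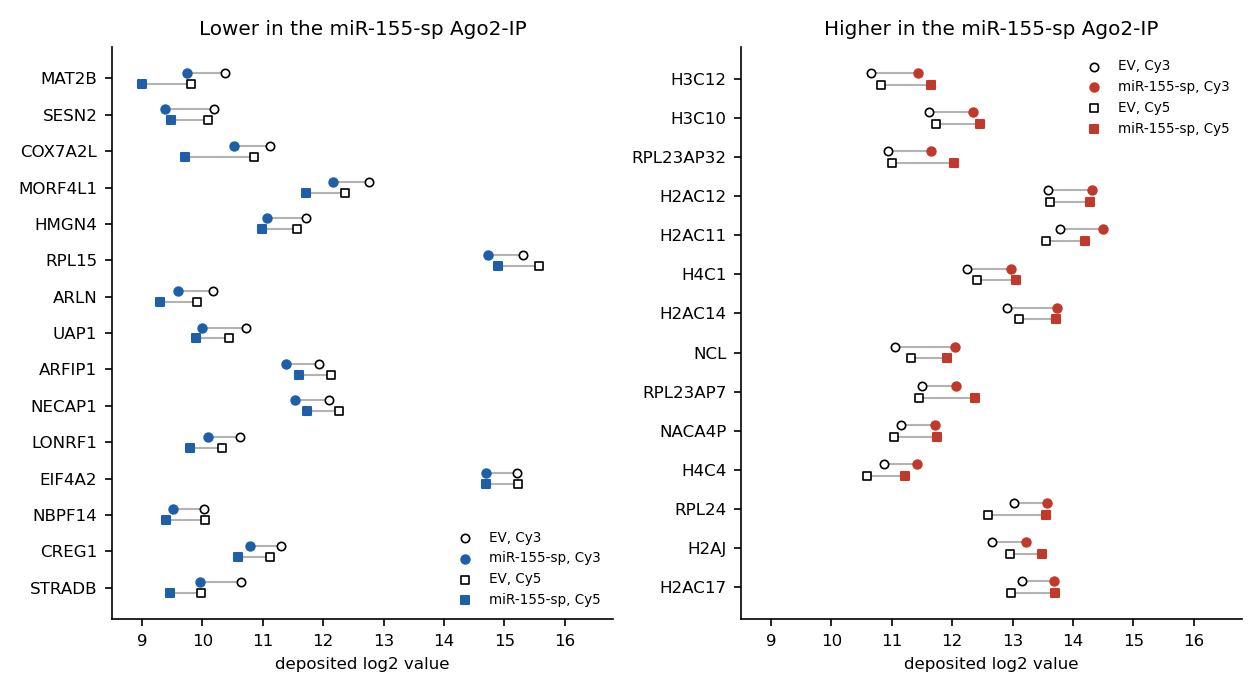
Deposited log2 values of the 15 bright genes with the lowest (left) and of 14 of the 15 with the highest (right) Ago2-IP values in miR-155-sp relative to EV cells. Open symbols are EV and filled symbols miR-155-sp, circles Cy3 and squares Cy5, and a grey line joins the values of 1 dye. For each of the 29 genes, which were chosen for these changes, both filled symbols lie on the same side of both open symbols.

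The probes of a gene were compared more widely. Of 953 genes with 2 or more bright probes, 586 (61.5%) had all of them moving in one direction in the mean of both dyes. All probes were lower in both dyes for 207 genes and higher in both for 110. In 120 genes 1 probe was lower in both dyes while another was higher in both.

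The transcripts that the study had named as miR-155 targets in ST486, a Burkitt lymphoma line with ectopic miR-155, were lower in the sponge precipitate of KM-H2. That list had been chosen on other arrays, not on these. Of its 54 genes, 44 had a probe in the table, and 43 of the 44 probes were well above background in all 4 Ago2-IP channels. Lower values in both dyes were found for 36 of 44 (81.8%), against 33.6% of all probes of the table, and higher values for 2, against 30.3%. The median change was -0.30 in Cy3 and -0.33 in Cy5, and -0.32 in the mean of both, beside -0.01 over all probes. Of the 27 bright members 24 were lower in both dyes and none was higher. By at least 0.32 in both dyes, 8 of the 27 (29.6%) were lower, against 2.08% of bright probes. At 1.5-fold none of the 27 was, against 0.0996% of bright probes. For 29 of the 44 both sponge values lay below both EV values, against 19.8% of the table. With the common median 32 of the 44 were lower and 3 higher, against 28.4% and 35.9% of all probes, and the median was -0.24.

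Total RNA of the same genes had a median change of -0.02. It was lower in both dyes for 19 and higher in both for 12, against 33.7% and 32.5% of all probes, and all 12 of the latter were lower in the precipitate. After the total RNA change was taken off, the median was -0.28, and 29 of 44 were lower in both dyes, against 28.9% of all probes. The 44 genes thus did not share one direction in total RNA.

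DET1 and JARID2 were lower in the precipitate and higher in total RNA in both dyes. DET1 is a component of a ubiquitin ligase complex. Its Ago2-IP values were 12.11 (EV) and 11.77 (sponge) in Cy3 and 12.16 and 11.79 in Cy5, while its total RNA values went from 9.71 to 9.96 and from 9.65 to 10.08. JARID2, a cofactor of the histone methyltransferase complex PRC2, had Ago2-IP values of 11.48 and 11.23 in Cy3 and of 11.82 and 11.36 in Cy5. For both genes the sponge values lay below the EV values of either dye in the precipitate. Its total RNA went from 8.91 to 9.22 and from 9.0005 to 9.57.

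TBRG1 encodes NIAM, an interactor of the tumor suppressor ARF. The listed TBRG1 probe went from 9.91 to 9.0015 in Cy3 and from 9.34 to 8.75 in Cy5. Its total RNA had changes of 0.00 and -0.03, at low values between 6.96 and 6.99. This probe, with a mean of 9.25 in the Ago2-IP, was not bright, and a second TBRG1 probe had changes of -0.19 and -0.32. The study described a TBRG1 probe that detects only the NIAM transcript, which has a miR-155 site. Its other probe also detects a more abundant non-coding transcript without that site. Which of these each probe here is was not checked. HOMEZ, a homeobox gene, had 2 probes with changes of -0.30 and -0.77 and of -0.46 and -0.64, neither of them bright. TRIM32, a ubiquitin ligase, had a dim probe with -0.35 and -1.23, which differed widely between the dyes, and a bright probe with -0.33 and -0.14. PSIP1, a chromatin-binding coactivator, gave no common direction. Its listed probe had changes of -0.44 and 0.37 and its other probe of -0.04 and -0.25.

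Among bright members chosen here for their values, METTL21A, a protein lysine methyltransferase, went from 12.26 to 11.82 in Cy3 and from 12.15 to 11.47 in Cy5. Its total RNA had changes of 0.05 and 0.06, and those of a second probe were -0.43 and -0.40 in the precipitate. PHC2, a Polycomb protein, went from 13.38 to 12.79 and from 13.20 to 12.86, with total RNA changes of -0.01 and -0.00. VAMP3, a vesicle fusion protein, had changes of -0.33 in both dyes. TCF4, a transcription factor of the E protein family, was lower in both fractions. Its changes of -0.41 and -0.61 in the precipitate stood beside -0.41 and -0.59 in total RNA. CCDC126, named by the list rule and on a dim probe (-0.51 and -0.61), was lower in both fractions as well. Its total RNA had changes of -0.46 and -0.10, at low values between 6.18 and 6.69. The 2 members with higher values in both dyes, LIN9 and MARK2, had changes of at most 0.15, and neither probe was bright. Bright second probes of these genes had changes of -0.18 and 0.01 (LIN9) and of -0.24 and -0.22 (MARK2).

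**Figure D3:**
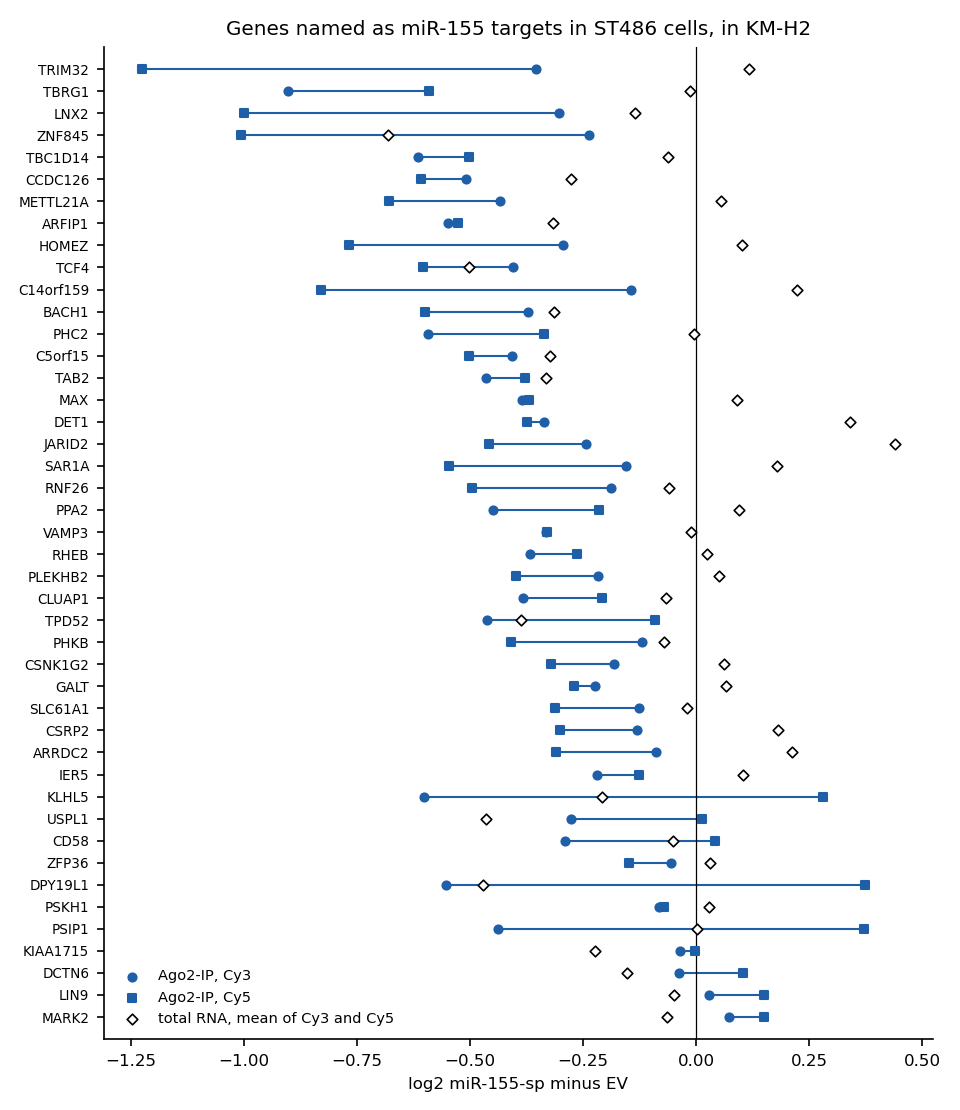
Log2 change, miR-155-sp minus EV, of the 44 genes named as miR-155 targets in ST486 cells, sorted by the mean Ago2-IP change. Blue circles are the Ago2-IP in Cy3, blue squares the Ago2-IP in Cy5, joined by a line, and open diamonds total RNA as the mean of both dyes. Both blue symbols lie left of 0 for 36 genes, and the diamonds spread around a median of -0.02.

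A second list held genes known from the literature as miR-155 targets, of which 5 are also on the ST486 list. Of its 31 probes, for 23 genes, 21 (67.7%) were lower in both dyes and 4 higher, against 33.6% and 30.3% of all probes, and the median change was -0.13. It was -0.069 with the common median and -0.067 after the total RNA change was taken off. The bright probes alone had a median of -0.23, with 17 of 20 lower in both dyes, against 36.7% of bright probes. BACH1, a heme-regulated repressor, went from 13.03 to 12.66 in Cy3 and from 13.32 to 12.72 in Cy5. TAB2, an adaptor of the TAK1 kinase in NF-kB signalling, went from 14.05 to 13.59 and from 13.78 to 13.40. Total RNA of BACH1 had changes of -0.41 and -0.22 and that of TAB2 of -0.34 and -0.32. MYB, a hematopoietic transcription factor that is not on the ST486 list and was chosen here for its values, went from 16.38 to 16.05 and from 16.23 to 15.94, with -0.04 and 0.06 in total RNA. ZNF652, a zinc finger repressor, had the opposite pattern on a dim probe, with 0.26 and 0.20 in the precipitate and -0.41 and -0.49 in total RNA. Without the genes shared with the ST486 list, 17 of 26 probes were lower and 3 higher in both dyes and the median was -0.11. MIR155HG itself, the host transcript of miR-155, was dim and had changes of 0.22 and 0.52, with 0.25 and 0.09 in total RNA.

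Literature targets of other miRNAs were close to the table as a whole. Of 19 probes of let-7 targets 6 were lower and 4 higher in both dyes, against 33.6% and 30.3% of all probes, with a median of -0.04. Among them FAS, the death receptor, had changes of -0.38 and -0.31, with -0.39 and -0.49 in total RNA. CDK6 had changes of 0.36 and 0.32 on 1 dim probe, and IGF2BP1 of 0.21 and 0.44, also on a dim probe. The 3 probes of CCND2, cyclin D2, did not agree, with 0.24 and 0.23 on one and -0.34 and -0.17 on another. Of 20 probes of targets of the miR-17-92 cluster 8 were lower and 4 higher, with a median of -0.01. VEGFA, a growth factor for blood vessels, was lower on both of its probes, which were dim, with -0.33 and -0.58 and with -0.58 and -0.27. A dim probe of RBL2, a relative of the retinoblastoma protein, had changes of -0.24 and -0.54. RB1 had a dim probe with 0.22 and 0.33. Of 12 probes of miR-21 targets 4 were lower and 5 higher, with a median of 0.03, and 1 of the 3 NFIB probes had changes of -0.32 and -0.31.

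The Argonaute and miRNA machinery had no common direction, with 9 of 20 probes lower and 4 higher in both dyes, against 33.6% and 30.3% of all probes. The median was -0.02. AGO2, whose protein was precipitated, had Ago2-IP mRNA values of 10.84 (EV) and 11.09 (sponge) in Cy3 and of 10.49 and 10.72 in Cy5. Its total RNA had changes of -0.03 and -0.11. TNRC6A, a scaffold that links Ago2 to mRNA decay, had changes of -0.37 and -0.53, with -0.47 and -0.17 in total RNA. DICER1, the enzyme that cuts miRNA precursors, had changes of -0.23 and -0.26 on 1 probe and of -0.06 and 0.46 on another. DDX6, a helicase of mRNA decay, had a dim probe with changes of 0.33 and 0.26.

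The other gene groups with 10 or more probes had medians between -0.10 and 0.07 in the deposited values. The lowest median belonged to the immediate early genes, with 9 of 19 probes lower and 5 higher, against 33.6% and 30.3% of all probes. There KLF6 had a dim probe with -0.21 and -0.32 and FOSL1 probes with 0.28 and 0.29 and with 0.46 and 0.16. IER5 had 1 probe with 0.39 and 0.29 and another with -0.22 and -0.13. Genes of oxidative phosphorylation had 55 of 105 probes lower (52.4%) and 26 higher (24.8%), against the same shares of all probes. Their median of -0.08 became 0.06 with the common median. Besides COX7A2L, a probe of ATP5MG had changes of -0.30 and -0.32, while COX5A had probes with 0.39 and 0.89 and with 0.25 and 0.25 and ATP5F1E one with 0.53 and 0.29. Ribosomal protein genes had 63 of 183 lower (34.4%) and 55 higher (30.1%), close to the shares of all probes. Their median of -0.02 became 0.20 with the common median. Besides the RPL15 probe named above, RPL17 (-0.37 and -0.47) and RPS28 (-0.36 and -0.40) were among the lower. Besides the RPL24 probe, RPS12 (0.49 and 0.78) and RPL14 (0.35 and 1.14) were among the higher.

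Proteasome genes had 11 of 48 probes lower and 14 higher, against 33.6% and 30.3% of all probes. PSMA4 had changes of -0.47 and -0.34, PSMB1 of -0.23 and -0.37 and PSMD10 of -0.28 and -0.22. On the other side were PSMC3 with 0.41 and 0.44 and a dim probe of PSMD12 with 0.20 and 0.80. Cell cycle genes had 8 of 24 lower and 7 higher, with AURKA (-0.30 and -0.34) and TYMS (-0.23 and -0.39) lower and MCM7, a subunit of the replicative helicase, higher (0.21 and 0.32). The NF-kB list had 7 of 15 lower and 4 higher, and 1 dim probe of TNFAIP3, the inhibitor A20, had changes of -0.25 and -0.78. Interferon-stimulated genes had 5 of 10 lower and 4 higher, with a dim probe of IFIH1 at -0.28 and -0.24 beside -0.30 and -0.70 in total RNA. Numbered zinc finger genes had 50 of 248 probes lower (20.2%) and 110 higher (44.4%), against 33.6% and 30.3% of all probes. Their median was 0.07. ZNF277, ZNF26 and ZNF383 had changes from -0.33 to -0.70 on dim probes, each well above background in 3 of 4 Ago2-IP channels. ZNF776 had changes of 0.51 and 0.68, ZNF8 of 0.58 and 0.42 and ZNF496 of 0.43 and 0.56, on dim probes too, that of ZNF496 well above background in 3 of 4 channels. Of the Hodgkin line markers, IRF4 had a probe with -0.27 and -0.26 and another with -0.10 and 0.41. CCL17, a chemokine, had a dim probe with changes of 0.45 and 0.68, with -0.05 and 0.01 in total RNA.

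**Figure D4:**
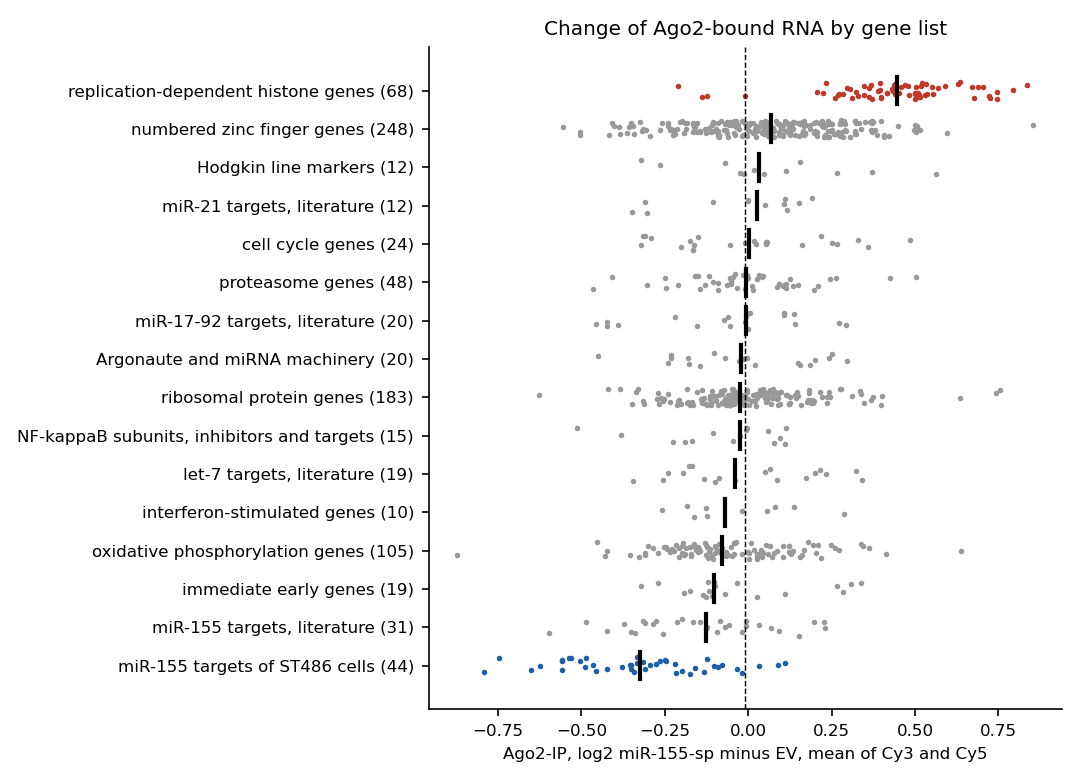
Log2 change of Ago2-bound RNA, miR-155-sp minus EV, mean of Cy3 and Cy5, for the probes of each gene list with 10 or more probes in the table (number of probes in parentheses). Points are probes, black bars the list medians and the dashed line the median of all 16065 probes. The ST486 targets have the lowest median, -0.32, the histone genes the highest, 0.45, and of the 13 lists that are neither of these nor the miR-155 literature list all medians of the deposited values lie between -0.10 and 0.07.

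Replication-dependent histone genes were higher in the sponge precipitate. These genes are transcribed in S phase, and their mRNAs end in a stem-loop in place of a poly(A) tail. How far the labelling captured mRNAs without such a tail was not tested, so the probe signals may not represent all histone mRNA. Of 68 probes, for 59 genes, 64 (94.1%) were higher in both dyes, against 30.3% of all probes, and 2 were lower. The median change was 0.50 in Cy3 and 0.40 in Cy5. Both sponge values lay above both EV values for 57 of the 68, against 17.7% of the table. Of the 61 bright histone probes 35 (57.4%) were higher by at least 0.32 in both dyes, against 2.66% of bright probes, and 6 were at least 1.5-fold higher, against 0.311%. With the common median 65 were higher and none lower, against 35.9% and 28.4% of all probes. With normexp, loess and Aquantile 61 were higher and 3 lower, against 27.2% and 34.7%.

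H3C12 had the largest change of the called histone genes, from 10.66 (EV) to 11.43 (sponge) in Cy3 and from 10.82 to 11.65 in Cy5, and total RNA was higher by 0.69 and 0.54. H3C10 rose from 11.62 to 12.34 and from 11.72 to 12.46. H2AC12 rose from 13.59 to 14.32 and from 13.61 to 14.29. For these 3 genes the sponge values lay above the EV values in either dye. H2AC11 rose from 13.79 to 14.49 and from 13.55 to 14.20, H4C1 from 12.25 to 12.98 and from 12.42 to 13.06, and H2AC14 from 12.92 to 13.74 and from 13.10 to 13.72. H2AC6 had a dim probe with changes of 0.72 and 0.77. Histone genes of a class are near-identical copies, so signal may be shared between their probes.

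All 19 probes of H2A were higher in both dyes, with a median of 0.52, and the median was 0.43 for 17 probes of H2B, 0.45 for 14 of H3, 0.35 for 13 of H4 and 0.35 for 5 of H1. Exceptions were H2BC12, with changes of -0.38 and -0.04, H3C3, with -0.04 and -0.20, H1-2, with 0.04 and -0.32, and H3C1, with 0.07 and -0.09. Total RNA of the histone probes was higher in both dyes for 48 of 68, against 32.5% of all probes, with a median of 0.14, so less than in the precipitate. For 63 of the 68 the change in the precipitate was upward and larger than in total RNA, against 35% of all probes. After the total RNA change was taken off the median was 0.29, and 54 of 68 were higher in both dyes, against 27.5% of all probes.

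**Figure D5:**
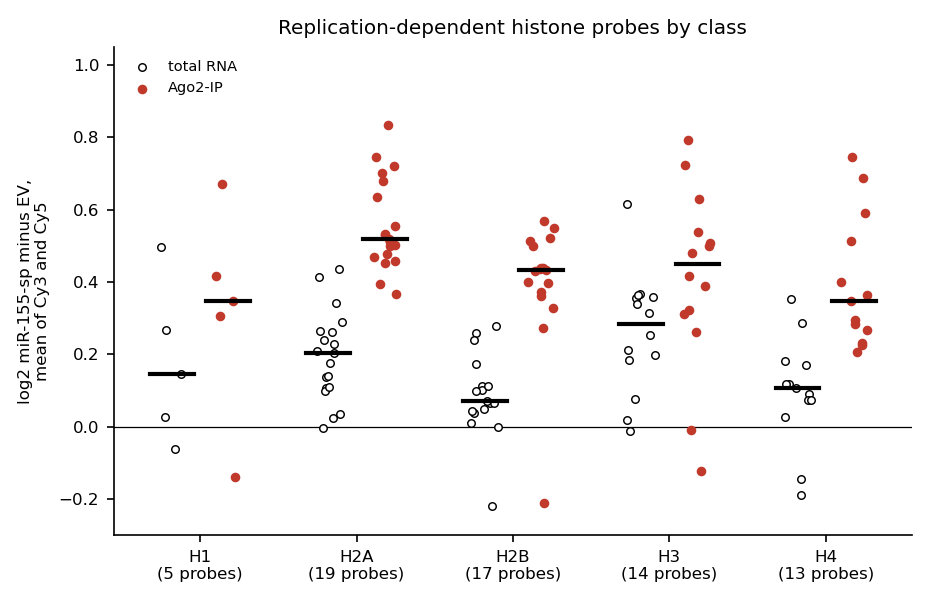
Log2 change, miR-155-sp minus EV, mean of Cy3 and Cy5, of the 68 replication-dependent histone probes by class. Open circles are total RNA, red circles the Ago2-IP and black bars the medians, which for the Ago2-IP run from 0.35 (H1 and H4) to 0.52 (H2A).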

How the data were processed

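KM-H2 RNA had been hybridized to 4 two-color Agilent 44k human arrays on 1 slide, each holding total and Ago2-IP RNA of 1 cell population with the dyes swapped between arrays. The log2 values deposited by the authors had been quantile-normalized in GeneSpring, and probes rarely detected or over 2-fold apart between labellings had been removed. This filter on agreement narrows the spread between the dyes. Per the file headers, the deposited spot intensities came from Agilent Feature Extraction 10.7.3.1 with background subtraction and dye normalization, whereas the labels name version 10.5.1.1. Own quantile normalization of these intensities gave a median absolute difference of 0.000557 from the deposited values over 16060 probes.

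Samples were grouped by the labels, and the Cy3 and Cy5 labellings are replicates 1 and 2. Changes were computed in Python 3.11.15 with pandas 2.3.3, and alternatives with limma 3.58.1 in R 4.3.3 (normexp offset 50). The code was tested on simulated data. Of 16065 probes, 11851 (73.8%) were named through a RefSeq table of GRCh38.p14, for 8757 genes. The others keep the study's or the array's name. Per the file headers the array design refers to hg18, and probe positions were not used here. In the Ago2-IP channels the share of gene spots well above background ran from 38.8% to 61.1%, and none was saturated. The number of arrays limits the precision.

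Named were the 15 bright genes with the largest falls and the 15 with the largest rises by the smaller of the changes in the dyes, all probes of the 6 genes that the study followed up and of MIR155HG and AGO2, up to 3 probes per list and direction with changes of at least 0.2, and cell type markers. Of the 15 rises, 1 gene is not reported here. METTL21A, PHC2, VAMP3, TCF4, MYB, LIN9, MARK2, the histone exceptions and second probes of genes were chosen after their values were seen. Members and lists were chosen with earlier results of these data known. Alternatives covered normalization, brightness, fold limit, each labelling alone, the agreement filter and averaging per gene.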

Additional observations from a re-analysis of the deposited data

Results flagged for a closer look

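The spike-in spots are no part of the comparison of genes. Relative to the genes of the same channel and before quantile normalization, they were higher in the miR-155-sp Ago2-IP than in the EV Ago2-IP by a median of 1.71 on the log2 scale in Cy3 (10 spike-ins, 1.45 to 1.86) and of 1.59 in Cy5 (1.46 to 1.76). Between the total RNAs, on the same arrays, the medians were 0.063 and 0.074.

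For 3 named probes the change in Ago2-bound RNA and that in total RNA were opposite in both dyes and each at least 0.2 in the mean. The difference was not tested. DET1 had a mean change of -0.36 in the precipitate and of 0.34 in total RNA. JARID2 had -0.35 and 0.44. ZNF652 had 0.23 and -0.45.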

How the results depend on the processing

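No paired analysis was possible because each group is 1 RNA and the shared replicate numbers are its dye labellings, within which every difference was already taken. The numbers of bright probes at least 1.5-fold lower and higher in both dyes were 8 and 25 with the deposited values and also with own quantile normalization. They were 3 and 49 with a common median, 1 and 15 with normexp and quantile normalization, 2 and 6 with normexp, loess and Aquantile, 38 and 71 with no brightness limit, 2 and 13 with the stricter brightness limit, 13 and 38 without the agreement filter, 1 and 8 when the bright probes of a gene were averaged, 167 and 214 at 0.32 on the log2 scale and 0 and 0 at 2-fold. With only 1 labelling they ranged from 33 to 99 lower and from 77 to 158 higher. The calls near the limit depend on the normalization, and the cause was not tested.

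The list medians of the miR-155 targets and the histone genes kept their sign under every alternative run. For the ST486 targets (-0.32) the median was -0.24 with the common median, -0.26 with normexp and quantile normalization, -0.26 with normexp, loess and Aquantile and -0.28 after subtraction of the total RNA change, and single labellings gave -0.30 and -0.33. For the literature targets (-0.13) it was -0.069 with the common median, -0.23 over bright probes and -0.067 after subtraction, and single labellings gave -0.10 and -0.16. Without shared genes, an alternative added after seeing the data, the 2 medians were -0.30 and -0.11. For the histone genes (0.45) it was 0.55 with the common median, 0.35 with normexp, loess and Aquantile and 0.29 after subtraction, and single labellings gave 0.40 and 0.50.

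Among lists with 10 or more probes, several with medians near 0 changed sign under another normalization, over bright probes or after subtraction. With the common median these were the let-7 targets (0.055), the miR-17-92 targets (0.0012), the Argonaute machinery (0.0040), the immediate early genes (0.040), ribosomal protein genes (0.20), oxidative phosphorylation (0.056) and proteasome genes (0.0865). After subtraction of total RNA they were the let-7 targets (0.060), the Argonaute machinery (0.097), the immediate early genes (0.035) and the interferon-stimulated genes (0.070). With normexp and quantile normalization and with normexp, loess and Aquantile, ribosomal protein genes became 0.029 and 0.025 and cell cycle genes -0.023 and -0.038. The proteasome genes were at 0.0021 with own quantile normalization. With Cy5 alone the let-7 targets (0.030), ribosomal protein genes (0.0017) and proteasome genes (0.017) changed sign, and with Cy3 alone the cell cycle genes (-0.064). The miR-21 targets became -0.021 with normexp, loess and Aquantile and -3.83e-05 over bright probes, and the Hodgkin line markers -0.018 over bright probes.

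Of the 96 named probes with one direction in both dyes, 14 changed sign after subtraction of total RNA: LONRF1 (0.088), CSF1R (0.11), FAS (0.094), DICER1 (0.96), CDK6 (-0.11), NFIB (0.0039), IFIH1 (0.24), ATP5F1E (-0.10), ZNF277 (0.063), ZNF26 (0.036), ZNF383 (0.0055), CD40 (0.017), TRAF1 (-0.0034) and FSCN1 (-0.20). With normexp and quantile normalization ZNF383 (0.010), ZNF496 (-0.13) and FSCN1 (-0.044) did. None of them did under the other normalizations. The remaining 8 named probes had opposite directions in the dyes, so a sign of their mean was not counted.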
